A study of Mus musculus with 3 samples.

Results

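Lysosomal enzymes and membrane proteins are described here as 34 genes, of the 55536 annotated genes measured, in nuclear RNA of mouse macrophages. The genes were chosen by symbol, from what their products are known to do, and each symbol matched 1 gene identifier. They fall into 5 groups by role, namely lipid degradation, glycosaminoglycan degradation, removal of other sugars, cleavage of proteins, phosphates and bacterial walls, and the lysosomal membrane. The values come from 3 total RNA-seq libraries of bone-marrow-derived macrophages (BMDM) of strain C57BL/6J, made from the nuclear fraction after ribosomal RNA depletion. One label field calls this fraction nucleoplasmic and another calls it nucleus. All 3 libraries belong to 1 group. Its cells had received 100 ng/ml lipid A, the part of lipopolysaccharide that TLR4 recognises, for 12 h, had then been washed and left for 12 h, and had received 100 ng/ml lipid A again for 15 min. The labels number the libraries as biological replicates 1, 2 and 3 but give all of them the same donor identifier, and they record neither age nor sex. The sources used here do not say if a mouse gave more than 1 culture, and p-values therefore reflect only the spread among these samples. Replicate 2 was made from 500 ng of RNA, and replicates 1 and 3 from 1 µg each. Untreated and unstimulated cells are not analysed here, and the values are levels, not responses.

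The lysosome is the acidic compartment in which cells break down lipids, glycans and proteins taken up from outside or delivered by autophagy. Most of its soluble hydrolases are made in the endoplasmic reticulum, tagged with mannose 6-phosphate in the Golgi and carried onward by receptors for that tag, while its membrane proteins line and acidify the compartment and export the products. Macrophages are rich in lysosomes because they digest what they engulf, and inherited loss of many of these genes causes a lysosomal storage disease. The transcription factors TFEB and TFE3 bind an E-box found in many lysosomal promoters, an element known as CLEAR.

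The libraries held between 19312032 and 23826101 expected counts over annotated genes, and the 34 genes held 615202, 545933 and 605721 of these in replicates 1, 2 and 3. The lowest count of any of the 34 genes in any library was 121, for Acp5 in replicate 2. All 10 macrophage markers listed for this check were detected, meaning a TPM (a level per transcript length, scaled to a fixed sum in each library) of at least 1 in all 3 libraries. Their summed level was between 1357 and 1783 TPM. Of the osteoclast markers 2 of 8 were detected, Nfatc1 and Atp6v0d2, with a summed level between 10.7 and 15.3 TPM, and Ctsk lay below 1 TPM in each library. The granulocyte list had 1 of 8 detected, the receptor gene Csf3r, and the erythroid list 1 of 6, Alas2. For lymphoid, dendritic and fibroblast markers the counts were 0 of 8, 0 of 6 and 0 of 7. In bulk RNA of this kind, fewer cells of a type and less RNA per cell cannot be told apart.

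All 34 genes were detected. Of 22015 protein-coding genes encoded in the nucleus, 9421 or 42.8% met the same limit. A mean of at least 100 TPM was reached by 11 of the 34, against 2.95% of the detected genes, and 30 had a mean of at least 10 TPM. The limit of 100 TPM was set after the values were seen. Ranked among the detected genes, 31 of the 34 lay above the median, and Smpd1, Acp5 and Arsb lay below it. The median of log2(TPM + 1) over the 34 genes was 5.30, 5.81 and 5.59 in replicates 1, 2 and 3 (5.57 ± 0.26, SD, n = 3), and over the detected genes it was 3.25 ± 0.10. Among the 34 genes there was 804-fold between the highest and the lowest mean TPM.

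**Figure D1:**
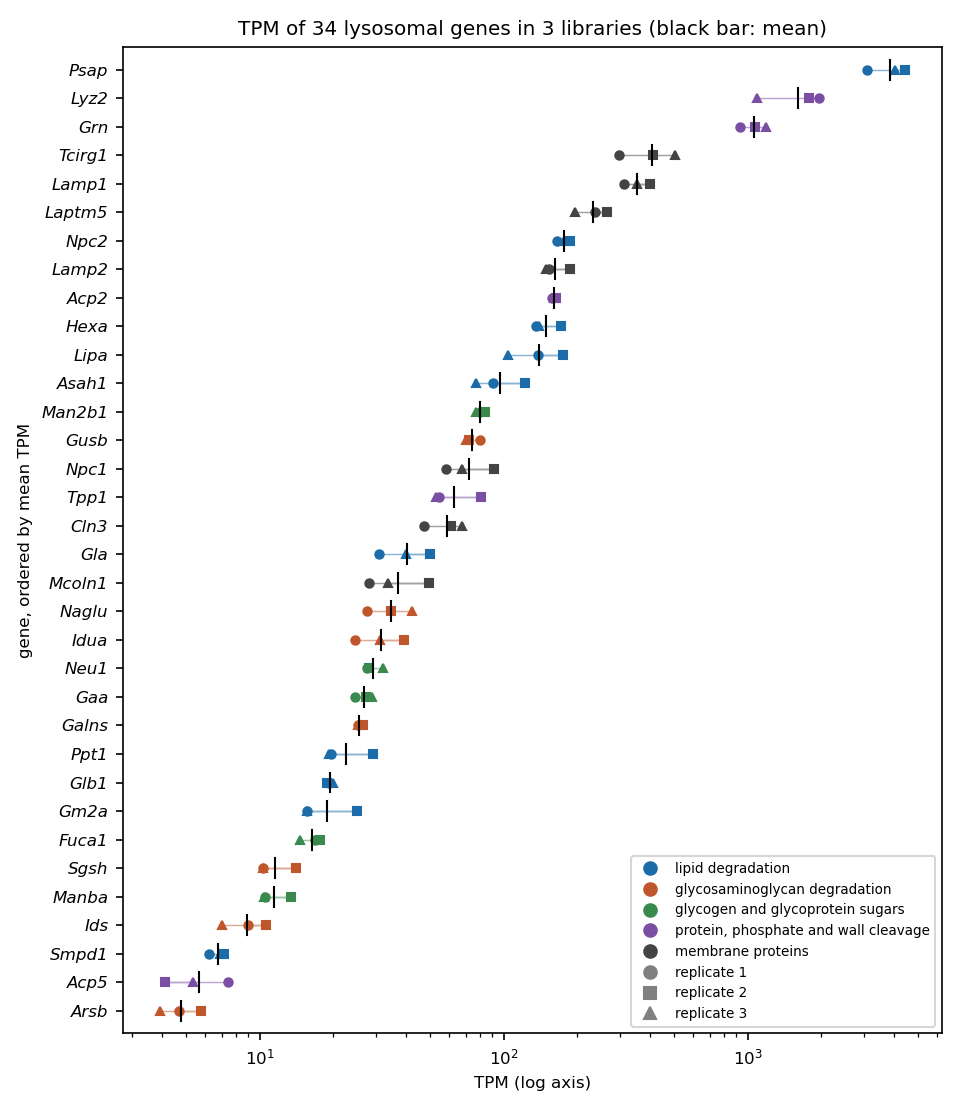
TPM of each of the 34 genes on a log axis. Points are the 3 libraries, shaped by replicate and coloured by role, and black bars are means. Psap stands at the top with a mean of 3848 TPM and Arsb at the bottom with 4.78 TPM, and most neighbours overlap.

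Together the 34 genes held 4.17%, 4.58% and 4.29% of the TPM of nuclear-encoded protein-coding genes in replicates 1, 2 and 3 (4.35% ± 0.21, SD, n = 3). Psap alone made up 42.1% ± 4.33 of this, and Psap, Lyz2 and Grn together 71.7% ± 0.42. By role, the lipid group held 49.4% ± 4.12 of the summed TPM of the 34 genes, the protein, phosphate and wall group 32.1% ± 4.83 and the membrane group 14.5% ± 0.92. The glycosaminoglycan enzymes held 2.11% ± 0.097 and the enzymes for other sugars 1.81% ± 0.12. Each of these last groups, with 7 and 5 genes, thus had a small summed level although every gene in it was detected.

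RefSeq promoter windows (GRCm38.p6, from 250 bases before to 50 bases after the gene start) were matched for 31 of the 34 genes, all but Npc1, Asah1 and Galns. The E-box CACGTG, which reads alike on both strands, was in the windows of 8 of the 31 genes (25.8%), against 8.09% of 27025 genes with a window. TCACGTG, searched on both strands and always overlapping an E-box, was in the same 8 genes, against 4.29% of all genes. GTCACGTGAC, the palindromic form of the CLEAR element, was in Cln3 alone, against 0.37% of all genes. The sequences around these sites are shown because the E-box is the core of the CLEAR element, and binding of TFEB was not tested. Each is on the gene's own strand with the E-box in capitals, and the windows of Cln3, Mcoln1, Naglu and Sgsh lie wholly or partly in an annotated exon.
Lamp1, chr8:13159092-13159159, plus strand: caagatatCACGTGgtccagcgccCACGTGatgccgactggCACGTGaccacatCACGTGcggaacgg
Gla, chrX:134601186-134601240, minus strand: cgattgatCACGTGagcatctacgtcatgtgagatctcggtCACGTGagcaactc
Cln3, chr7:126583372-126583393, minus strand: ccctcaagCACGTGatggaagg
Cln3, chr7:126583344-126583365, minus strand: ggtactgtCACGTGacccccaa
Mcoln1, chr8:3500440-3500461, plus strand: gcgcttgtCACGTGttcagttc
Mcoln1, chr8:3500466-3500487, plus strand: gccccgctCACGTGaccgcggc
Glb1, chr9:114401022-114401043, plus strand: ttctgagtCACGTGgcctacag
Naglu, chr11:101070013-101070034, plus strand: cttcaggtCACGTGgcccgagg
Gaa, chr11:119267815-119267836, plus strand: tgtgcgatCACGTGtttgactc
Sgsh, chr11:119355526-119355547, minus strand: ctgccgtgCACGTGaccgtggg
Lamp1 carried 4 E-boxes, which began 61, 45, 28 and 15 bases before its start, and Gla, Cln3 and Mcoln1 carried 2 each. The Cln3 sites lie before the second of its RefSeq starts. The 8 genes with an E-box had a median of 35.9 TPM and ranged from 11.6 to 353 TPM, and the 23 genes without one in the window had a median of 74.0 TPM and ranged from 4.78 to 3848 TPM. The levels of both sets overlapped widely. A match is a description of letters in these windows, and a window without one says nothing about binding elsewhere.

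Lipid degradation was led by Psap, which encodes prosaposin, the precursor of the saposins that present sphingolipids to their hydrolases. Psap had 3094, 4411 and 4039 TPM in replicates 1, 2 and 3 (3848 ± 679, SD, n = 3), and no detected nuclear-encoded protein-coding gene had a higher mean. The gene is on chromosome 10 at 60277627 to 60302597, plus strand, in mm10. Replicate 1 was the lowest, and the lowest Psap value still exceeded the highest value of every other gene among the 34. Npc2, a soluble cholesterol-binding protein that passes cholesterol to the membrane protein NPC1, had 165, 186 and 177 TPM. Hexa, the alpha subunit of beta-hexosaminidase, which degrades GM2 ganglioside, had 136, 172 and 139 TPM. Lipa, the acid lipase that hydrolyses cholesteryl esters and triglycerides, had 138, 176 and 104 TPM. These 3 genes overlapped one another, with Lipa the most variable. Asah1, acid ceramidase, followed with 90.2, 122 and 77.4 TPM, and its replicate 2 value lay within the range of Lipa.

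The other lipid genes were between 6.18 and 50.1 TPM in every library. Gla, alpha-galactosidase A, the enzyme missing in Fabry disease, had 31, 50.1 and 39.8 TPM. Ppt1, a thioesterase that removes palmitate from proteins, had 19.7, 29.2 and 19.2 TPM. Gm2a, the activator protein that presents GM2 ganglioside to beta-hexosaminidase, had 15.6, 25.1 and 15.7 TPM. All 3 were highest in replicate 2. Glb1, beta-galactosidase, had 19.2, 18.9 and 20.0 TPM and was among the least variable of the 34 genes. Smpd1, acid sphingomyelinase, had 6.18, 7.14 and 6.87 TPM, the lowest of this group.

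Glycosaminoglycan degradation drew on 7 enzymes that take heparan, dermatan, keratan or chondroitin sulfate apart in sequence, and 4 of them remove sulfate groups. Gusb, beta-glucuronidase, was the highest with 79.8, 72.4 and 69.9 TPM. Naglu, alpha-N-acetylglucosaminidase, had 27.5, 34.5 and 42.2 TPM, and Idua, alpha-L-iduronidase, had 24.5, 38.9 and 31.3 TPM. Gusb lay above both in each library. Galns, a sulfatase for keratan and chondroitin sulfate, had 25.3, 26.4 and 25.3 TPM. Sgsh, the sulfamidase of heparan sulfate, had 10.3, 14.0 and 10.3 TPM. Ids, iduronate 2-sulfatase, had 8.98, 10.6 and 7.03 TPM, within reach of Sgsh only in replicate 2. Arsb, arylsulfatase B, had 4.69, 5.75 and 3.91 TPM, and its mean was the lowest of the 34 genes.

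Among the enzymes that remove other sugars, Man2b1, lysosomal alpha-mannosidase, was the highest with 80.3, 83.8 and 77.2 TPM. Neu1, the sialidase that works in a complex with cathepsin A and beta-galactosidase, had 27.5, 28.2 and 31.9 TPM. Gaa, acid alpha-glucosidase, the enzyme of glycogen breakdown missing in Pompe disease, had 24.5, 27.2 and 28.8 TPM. Neu1 and Gaa overlapped, and Man2b1 lay above both in each library. Fuca1, alpha-L-fucosidase, had 16.9, 17.7 and 14.7 TPM, and Manba, beta-mannosidase, had 10.6, 13.5 and 10.5 TPM. Within this group the highest value of a gene was at most 1.29 times its lowest.

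The group for proteins, phosphates and bacterial walls held the genes ranked 2 and 3 by mean level among the 34. Lyz2, the macrophage lysozyme that cleaves bacterial peptidoglycan, had 1968, 1790 and 1090 TPM (1616 ± 464, SD, n = 3). The gene is on chromosome 10 at 117277331 to 117282321, minus strand. Replicate 3 was the low one, 1.81 times below replicate 1. Of the 31-base words of its transcript 32.8% also occur in Lyz1, a near copy at 0.82 ± 0.042 TPM. Lyz2 had 78696, 50884 and 39315 expected counts in replicates 1, 2 and 3. Their deposited posterior SD was only 0.12, 0.09 and 0.2, so the authors' estimate left the Lyz2 count little uncertainty despite the shared words. Grn, progranulin, which is cut into granulins in the lysosome, had 931, 1073 and 1190 TPM (1065 ± 130) and is on chromosome 11 at 102430315 to 102437048, plus strand. Lyz2 and Grn overlapped, because Lyz2 was below Grn in replicate 3. Acp2, an acid phosphatase, had 157, 164 and 162 TPM and the smallest spread of the 34 genes. Tpp1, a protease that removes tripeptides, had 54.3, 80.7 and 53.1 TPM. Acp5, tartrate-resistant acid phosphatase, which osteoclasts express strongly, had 7.45, 4.11 and 5.35 TPM and was the only one of the 5 to stay under 10 TPM.

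The membrane group was led by Tcirg1, the a3 subunit of the proton pump that acidifies the compartment, with 298, 409 and 506 TPM (404 ± 104, SD, n = 3). Tcirg1 is on chromosome 19 at 3896050 to 3907133, minus strand. Lamp1, a heavily glycosylated protein of the limiting membrane, had 312, 398 and 351 TPM and overlapped Tcirg1. Laptm5, a lysosomal membrane protein of blood cells, had 237, 266 and 196 TPM, below Lamp1 in each library. Lamp2, the second LAMP protein and a receptor in chaperone-mediated autophagy, had 153, 187 and 149 TPM. Npc1, which takes cholesterol from NPC2 and moves it into the membrane, had 58.2, 91.7 and 67.6 TPM. Cln3, a membrane protein lost in juvenile Batten disease, had 47.4, 60.7 and 67.7 TPM, and Mcoln1, the calcium channel TRPML1, had 28.1, 49.5 and 33.6 TPM. Npc1 and Cln3 overlapped in range. Mcoln1 reached the range of Cln3 only in replicate 2.

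In the order of mean levels, 28 of the 33 neighbouring pairs had overlapping ranges over the 3 libraries. The other 5 did not overlap, namely Psap over Lyz2, Grn over Tcirg1, Lamp1 over Laptm5, Laptm5 over Npc2, and Fuca1 over Sgsh. The ranges alone therefore do not settle the order within the overlapping pairs. Compared library by library, some of these pairs kept their order in all 3. They were Lipa over Asah1, Asah1 over Man2b1, Man2b1 over Gusb, Npc1 over Tpp1 and Cln3 over Gla. Gla over Mcoln1, Neu1 over Gaa, Manba over Ids and Ids over Smpd1 did so too. The other overlapping pairs changed order in at least 1 library.

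Other lysosomal genes were detected about as widely. Of 15 other hydrolases 15 were detected, with a median log2(TPM + 1) of 5.16 ± 0.12 (SD, n = 3). Among them, Ctsa had 262 ± 9.20 TPM and Scpep1 87.7 ± 7.0 TPM, and Arsg was the lowest at 2.01 ± 0.85 TPM. Of 15 other membrane proteins 14 were detected, all but Laptm4b, with a median of 4.71 ± 0.28. Cd68 (165 ± 8.70 TPM), Cd63 (165 ± 49.8), Slc11a1 (146 ± 35.9) and Clcn7 (94.9 ± 22.0) were the highest, and Mfsd8 was the lowest detected at 5.59 ± 0.88 TPM. Beside Tcirg1, all 17 listed subunits and accessory proteins of the proton pump were detected, with a median of 5.12 ± 0.19. Atp6v0c (227 ± 38.5 TPM), Atp6v0b (168 ± 19.6), Atp6ap1 (126 ± 25.0) and Atp6v1b2 (97.6 ± 9.95) led them, and Atp6v0d2 was the lowest at 2.10 ± 1.16 TPM. No listed subunit had a mean above that of Tcirg1.

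Genes for sorting and biogenesis had the lowest median of the lysosomal lists. Of 13, 12 were detected, all but Sort1, with a median log2(TPM + 1) of 4.39 ± 0.018 (SD, n = 3). M6pr, the small mannose 6-phosphate receptor, had 86.6 ± 17.2 TPM, Sumf1, which activates the sulfatases, 34.3 ± 3.49 TPM, the transcription factor gene Tfe3 29.9 ± 4.63 TPM and the adaptor gene Gga1 25.3 ± 3.4 TPM. Gnptg, a subunit of the enzyme that begins the mannose 6-phosphate tag, was the lowest detected at 4.71 ± 0.45 TPM. The cathepsins and legumain, the lysosomal proteases, had 10 of 11 detected, all but Ctsk, and the highest median of these lists, 7.58 ± 0.22. Ctsd (1825 ± 141 TPM), Ctsb (1632 ± 204), Ctss (1027 ± 25.2) and Lgmn (671 ± 53.8) led them, and Ctsf was the lowest detected at 1.88 ± 0.079 TPM. Their sum was 2.96% ± 0.064 of the TPM of nuclear-encoded protein-coding genes. That is below the 4.35% of the 34 genes, but above the 2.51% that the 34 genes held without Psap. Of these proteases Ctsd and Ctsb had means above that of Lyz2, within its range over the libraries, and Psap exceeded both in each library.

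**Figure D2:**
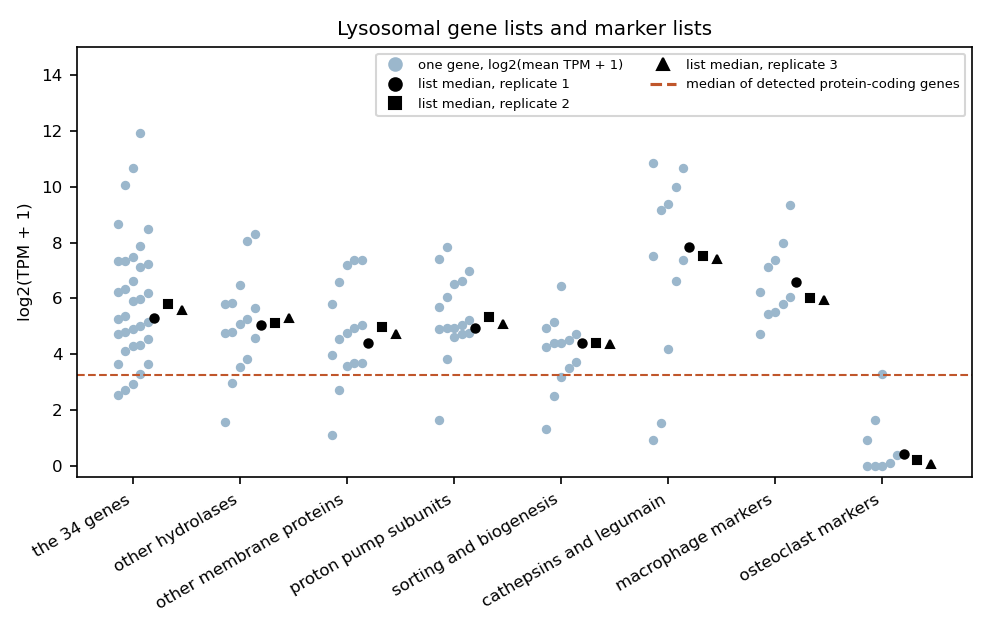
Levels of the 34 genes, 5 lists of other lysosomal genes and 2 marker lists, as log2(TPM + 1). Pale points are genes at their mean TPM, black symbols are the list medians in the 3 libraries, and the dashed line is the median over detected protein-coding genes at 3.25. The lysosomal medians all lie above the line and the osteoclast medians lie below 1.

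The median spread between libraries was slightly larger over the 34 genes than over the detected genes. For 20 of the 34 the highest TPM was less than 1.5 times the lowest, and no such count over the detected genes is given here. The median SD of log2(TPM + 1) was 0.23 over the 34 genes and 0.20 over the detected genes. The largest ratios of highest to lowest TPM were 1.81 for both Acp5 and Lyz2, and the smallest was 1.04 for Acp2. Replicate 2 gave the highest TPM for 24 of the 34 genes, while it did so for 59.6% of the detected genes. Its nuclear-encoded protein-coding genes also took more of all TPM, 22.2%, against 19.9% in replicate 1 and 20.6% in replicate 3. With TPM scaled to the same sum over those genes, replicate 2 was highest for 18 of the 34 and for 44.5% of the detected genes. The scaled SD had a median of 0.19 over the 34 genes and 0.18 over the detected genes.

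**Figure D3:**
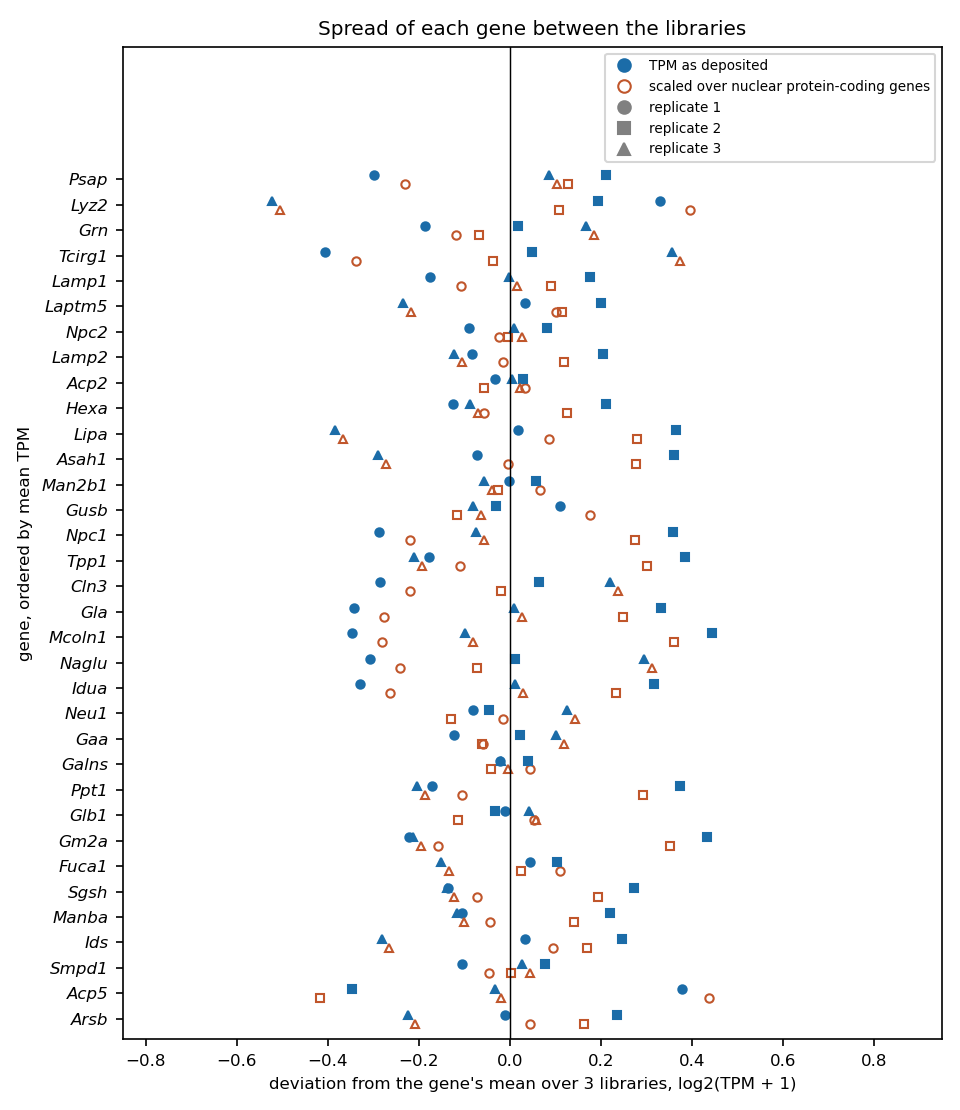
Deviation of each library from the gene's mean over the 3 libraries, in log2(TPM + 1), for the 34 genes. Filled symbols are TPM as deposited and open symbols are TPM scaled over nuclear-encoded protein-coding genes, shaped by replicate. Squares (replicate 2) lie to the right for most genes and move to the left after scaling, and Lyz2 has the widest spread of the values as deposited.

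No gene among the 34 passed a test between or across libraries. This does not show that the libraries were alike, and the test between them sets 1 library against 2. In the edgeR quasi-likelihood fit of 14350 genes, 0 genes were more variable than the trend for their abundance at an adjusted p under 0.05 (0% of those tested, 690 at an unadjusted p under 0.05), and 0 of the 34 reached even the unadjusted limit. The trend and the scatter around it were estimated from these same genes. The test can therefore find outliers from the other genes, but says nothing about how variable the genes are as a whole. Replicate 2, with the lower RNA input, was set against replicates 1 and 3, a contrast in which input and culture cannot be told apart. It also gave 0 genes (0% called, 877 at an unadjusted p under 0.05), and 0 of the 34. By DESeq2 it gave 11 of the 14350 genes and 0 of the 34. Acp5 was the 1 gene of the 34 at an unadjusted p under 0.05, with a log2 difference of -0.89 (SE 0.33, adjusted p = 0.773, edgeR). Its TMM-scaled CPM values were 12.9, 6.09 and 9.59, lowest in replicate 2. The median difference was 0.00 over the 34 genes and -0.01 over all genes tested, and 17 of the 34 were positive, as were 7053 of the 14350. In the 5 other lysosomal lists, 0 of 71 genes tested passed in either direction, with 4 at an unadjusted p under 0.05 by edgeR and 0 called by DESeq2.

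The isoforms give detail that gene totals hide. The authors deposited 2 sets of transcript values, called RSEM-format and kallisto-format here after the columns those tools write, and shares are RSEM-format unless named otherwise. In RSEM-format values the isoform with the largest share of the gene's TPM was annotated as protein-coding in all 34 genes, and in 28 it also led in kallisto-format values. The exceptions were Cln3, Gaa, Idua, Manba, Neu1 and Psap. In kallisto-format values Manba was led by Manba-202, a processed transcript with 33.4% ± 7.55, and Neu1 by Neu1-202, a retained-intron isoform with 47.3% ± 5.26. Both leads were narrow. Manba-201 had 31.8% ± 5.86 and was ahead in replicates 1 and 3. Neu1-201 had 47.0% ± 5.11 and was ahead in replicate 3, with 51.6% against 41.3%. One isoform held over 90% of the TPM in 11 genes, which include Gm2a, Hexa and Lyz2 with 1 annotated transcript each. No such counts over all detected genes are given here, so these describe the 34 genes without a comparison.

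Psap RNA was divided between a pair of isoforms with different first exons, whose starts lie 6834 bases apart. Psap-202, with the upstream start, held 54.7%, 42.1% and 45.2% of the gene's TPM in replicates 1, 2 and 3. Psap-203, with the downstream start, held 42.4%, 53.8% and 51.6%. Replicate 1 thus had more of the upstream form and replicates 2 and 3 more of the downstream form. The kallisto-format shares of Psap-203 were 33.96%, 50.7% and 44.2%, lowest in replicate 1 as well, but in replicate 3 they put Psap-202 ahead with 46.9%. The remaining 3 Psap isoforms each held a mean of 2.03% or less.

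Lamp2 is known for isoforms that differ in the tail and membrane anchor, and here its leading pair differed only in the last exon. Lamp2-202, with a last exon of 2345 bases, held 55.6%, 52.8% and 53.7% of the TPM. Lamp2-201, with a last exon of 510 bases, held 32.5%, 32.3% and 32.6%. Lamp2-203, the third protein-coding form, held 1.60% ± 0.52 (SD, n = 3). These shares were steady across the libraries and within 5 percentage points of the kallisto-format ones.

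Acp5 showed the least stable shares, on the lowest counts. Acp5-202 held 31.8%, 93.2% and 42.1% of the TPM, and Acp5-201, whose first exon starts 1217 bases away, held 61.0%, 0% and 54.4%. In expected counts Acp5-202 had 97.5, 112 and 83.6, and Acp5-201 had 189, 0 and 109. The deposited posterior SD of these counts was between 20.6 and 28.6 for Acp5-202 and between 15.4 and 33.3 for Acp5-201. In kallisto-format values Acp5-201 was again lowest in replicate 2, with 8.72% against 49.6% and 45.8%. Replicate 2, with the lowest Acp5 level, thus had no RSEM-format count on Acp5-201, at a depth of 121 counts for the gene. In Gaa and Tcirg1 the 2 protein-coding isoforms with the largest shares differed only in the first exon, with starts 139 and 142 bases apart. Gaa-201 held 50.3% ± 2.07 and Gaa-203 39.6% ± 3.85 of the Gaa TPM, while Tcirg1-204 held 6.42% ± 0.96 beside the 41.7% ± 3.45 of Tcirg1-201.

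**Figure D4:**
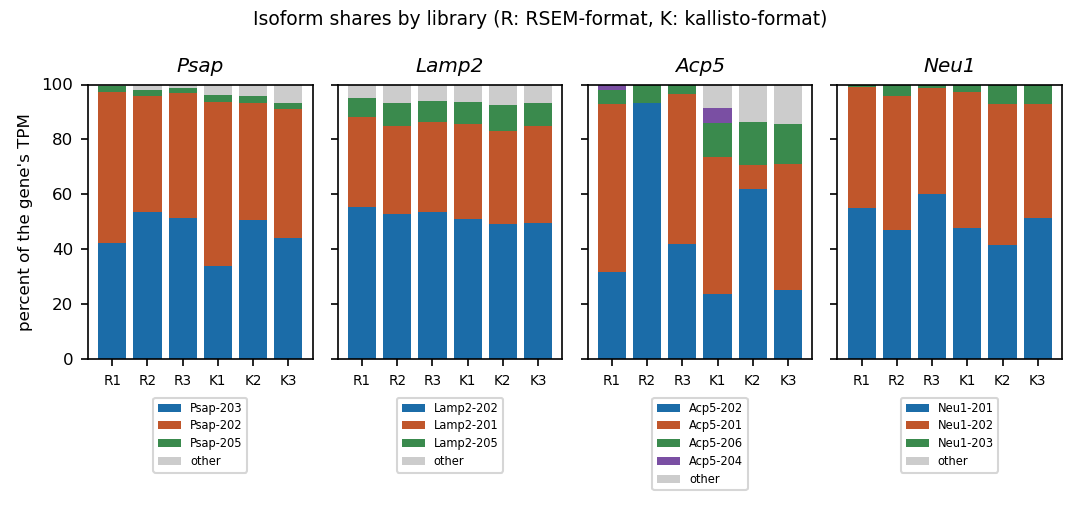
Share of each gene's TPM held by its leading isoforms in the 3 libraries, with RSEM-format values (R1 to R3) and kallisto-format values (K1 to K3). Grey is the sum of other isoforms. Psap-202 leads Psap-203 in replicate 1, Lamp2 is alike in all bars, Acp5-201 is at 0% in R2, and Neu1-202, a retained-intron isoform, holds 38.7% to 49.0% of Neu1 in the RSEM-format bars.

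Isoforms annotated as retaining an intron were measured in 18 of the 34 genes, and GENCODE M21 lists none for the other 16. Their share of the gene's TPM had a median of 16.1%, 18.9% and 16.01% in replicates 1, 2 and 3 (17.0% ± 1.63, SD, n = 3). Across the 5980 detected protein-coding genes that have one, the median was 24.0% ± 0.44. In 6 of the 18 genes the mean share was at least 30%, a limit set after the values were seen, against 38.5% of the 5980 genes. Over 8 of the cathepsins and legumain the median was 11.0% ± 2.81. Such isoforms and unspliced nuclear RNA cannot be told apart in these reads.

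The 6 genes with the high shares were Tcirg1, Neu1, Npc1, Mcoln1, Npc2 and Tpp1. Tcirg1 had 44.6%, 45.1% and 48.9%, and Neu1 had 45.0%, 53.0% and 39.8%. Npc1 had 37.3%, 51.2% and 39.9%, and Mcoln1 had 39.7%, 42.3% and 40.7%. Npc2 had 29.99%, 39.0% and 33.3%, and Tpp1 had 31.01%, 32.8% and 36.9%. In each of them the 3 libraries lay above the medians of all genes in RSEM-format values, by which they were also chosen. In kallisto-format values this failed for Npc1 alone, with 27.19%, 39.19% and 27.34% in replicates 1, 2 and 3. The kallisto-format medians of all genes were 28.37%, 29.47% and 27.39%. In Asah1 the RSEM-format share was 23.4%, 44.8% and 18%, and in Grn it was 7.48%, 23.3% and 11.0%, both with replicate 2 far above the others. In kallisto-format values replicate 2 was again the highest, but in Asah1 by less. Those shares were 29.2%, 35.6% and 23.1% in Asah1 and 12.0%, 26.8% and 17.1% in Grn. In 5 genes, Lamp1, Smpd1, Lamp2, Lipa and Gusb, the mean was between 3.07% and 8.21%. Lamp1 at 353 TPM and Tcirg1 at 404 TPM had overlapping levels, yet retained-intron shares of 3.07% ± 0.98 and 46.2% ± 2.36. Lamp1 has 2 annotated transcripts and Tcirg1 has 14, and short isoforms weigh more in TPM than in counts. Tcirg1-213, of 467 bases, held 9.84% of the gene's TPM. It had 149, 373 and 445 of the gene's 20285, 18342 and 28602 counts in replicates 1, 2 and 3. How far annotation and length make this contrast was not tested.

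**Figure D5:**
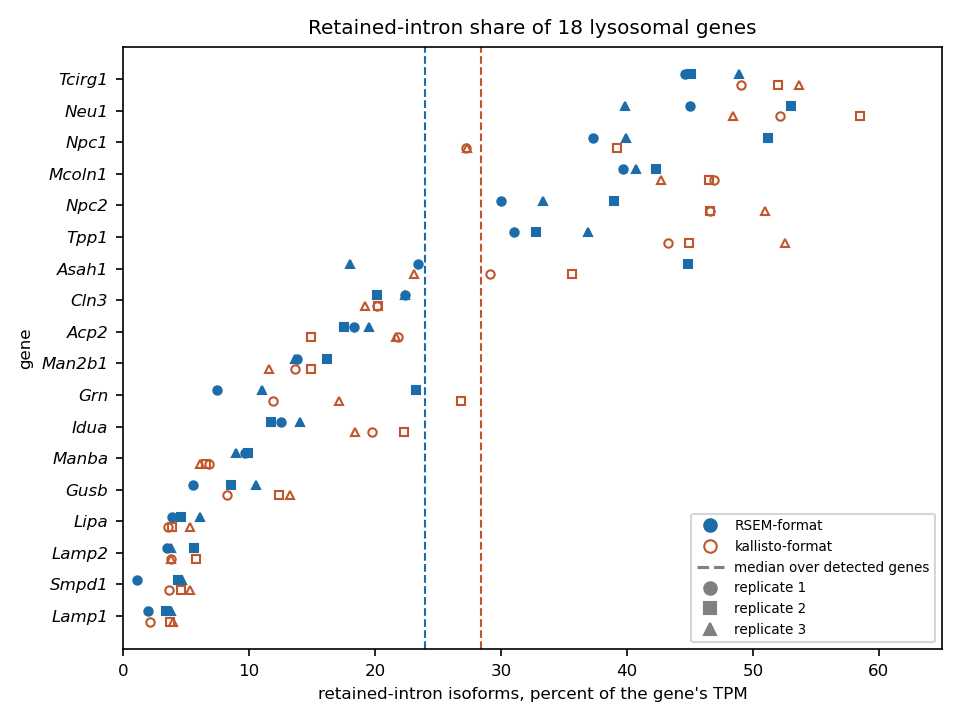
Share of each gene's TPM in isoforms annotated as retaining an intron, for the 18 genes that have one. Filled blue symbols are RSEM-format values, open orange symbols are kallisto-format values, and dashed lines are the medians over 5980 detected genes. The upper 6 genes lie at 29.99% or more in all 3 libraries in RSEM-format values, and Lamp1, Smpd1, Lamp2 and Lipa lie under 7%.

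Which introns these isoforms contain was read from the exon models. Introns of the leading protein-coding isoform that lie whole within an exon of a retained-intron isoform numbered 30, in 15 genes. They were between 76 and 2519 bases long, with a median of 235.5, and 16 were shorter than the median intron of their gene. All 30 began with GT and ended with AG. Of the 28 whose splice sites were read, 18 began with GTAAG or GTGAG, the commonest start of mammalian introns. No share over other introns is given here. The main retained-intron isoforms of Npc1, Npc2, Mcoln1 and Asah1 begin or end inside an intron, so no whole intron of them was counted.

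Among the isoforms that contain a whole intron, the splice sites of those with the largest shares are shown because they bound the introns that these isoforms keep. They were taken from the GENCODE M21 transcripts, on the gene's strand, with the first and last pair of intron letters in capitals.
Neu1 intron 3, donor: gcattcagGTttcaccct
Neu1 intron 3, acceptor: acttcctcttcttaacAGaaacagcg
Tpp1 intron 3, donor: tcaatatgGTgcctatca
Tpp1 intron 3, acceptor: tcttctgaatccctgcAGgaaagtac
Acp2 intron 6, donor: tttgtgagGTgagctgac
Acp2 intron 6, acceptor: gcccgctgcgatacacAGcaaaccca
Tcirg1 intron 9, donor: gcggctcaGTgagcatcc
Tcirg1 intron 9, acceptor: tctgcctgggtaccccAGagtgagga
Tcirg1 intron 12, donor: ggctggagGTatgaccta
Tcirg1 intron 12, acceptor: tatctatttttactgcAGtgacgagt
Neu1-202, which contains intron 3, held 44.0%, 49.0% and 38.7% of the Neu1 TPM. That intron has 1174 bases and is the longest of the 5 in the gene. Tpp1-206 contains intron 3 of Tpp1, with 1259 bases the longest of 12, and held 18.3% ± 0.79 (SD, n = 3). Neither of these donors begins with GTAAG or GTGAG, while those of Acp2 intron 6 and Tcirg1 intron 9, also shown, begin with GTGAG. Acp2-202 contains intron 6, of 439 bases, and held 18.5% ± 1.01 of the Acp2 TPM. Tcirg1-207 contains introns 9 and 12, of 308 and 79 bases, and held 13.2% ± 1.55 of the Tcirg1 TPM.

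Isoforms of other classes were large in a few genes. Gusb-206, annotated as a target of nonsense-mediated decay, held 34.9%, 20.3% and 37.1% of the Gusb TPM, lowest in replicate 2. That class held 15.6% ± 2.92 in Sgsh, 13.1% ± 0.84 in Manba and 11.3% ± 6.31 in Man2b1. These shares depended on the quantification, and in kallisto-format values they were 6.79% ± 4.06, 6.298% ± 0.48 and 21.5% ± 9.24. Isoforms of the class processed transcript, which have no annotated coding sequence, held 49.5% ± 11.0 of Fuca1 and 26.2% ± 10.5 of Cln3. In kallisto-format values they held 61.4% ± 3.79 and 30.1% ± 5.60. The largest such isoforms of Fuca1 have 628 and 595 bases, against 2525 for the protein-coding Fuca1-201, and TPM is a level per length. In expected counts Fuca1-201 held 764, 405 and 653 of the gene's 877, 513 and 733 in replicates 1, 2 and 3. The class differed most between the quantifications in Manba, with 9.52% ± 4.69 and 55.4% ± 6.33. In Cln3, with 19 annotated transcripts, the leading isoform held only 14.1% ± 1.17.

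The position of the genes bears on how reads were assigned. Chromosomes 8 and 11 hold 5 of the 34 genes each. Gaa and Sgsh lie 58.0 kb apart on chromosome 11, and Smpd1 and Tpp1 lie 186 kb apart on chromosome 7. Exons of 12 of the 34 genes share bases with another gene, on the same strand only for Glb1, which shares 165 bases with Tmppe (7.60 ± 0.36 TPM). Cln3 shares 442 bases with Apobr (39.1 ± 3.17 TPM) on the opposite strand, and Ppt1 shares 129 bases with Cap1 (62.6 ± 6.01 TPM). Idua shares 141 bases with Slc26a1 (2.25 ± 0.33 TPM) and 124 bases with Dgkq (5.96 ± 0.70 TPM). The sources used here do not say if strand was used in counting, and reads in these bases cannot be told apart. Apart from Lyz2, no 31-base word was shared by the pairs Man2b1 and Man2b2, Lamp1 and Lamp2, or Laptm5 with Laptm4a and Laptm4b.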

How the data were processed

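Nuclear total RNA of 3 macrophage cultures was measured. The authors quantified genes and transcripts on mm10 and GENCODE M21, per the notes deposited beside the tables; the sources used here name no tool or version. The deposited expected counts are estimated, unnormalised counts per gene or transcript. The deposited TPM, posterior mean TPM and FPKM were scaled for length and depth by the authors. The posterior SD of each count is deposited beside it. A second transcript table by the authors holds estimated counts and TPM in kallisto's columns. It was summed per gene and rescaled so that nuclear-encoded protein-coding genes had the RSEM-format sum.

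Levels were analysed as TPM or log2(TPM + 1). Expected counts were rounded, filtered with filterByExpr, scaled by TMM and tested with edgeR 4.0.16 (quasi-likelihood, Benjamini-Hochberg over 14350 genes, threshold 0.05), with DESeq2 1.42.0 as the alternative, in R 4.3.3. Both edgeR tests were tested on simulated data. Levels and figures used Python 3.11.15 (numpy 2.4.6, pandas 2.3.3, matplotlib 3.10.9, scipy 1.17.1). Promoters came from RefSeq (GRCm38.p6), transcripts from GENCODE M21. Rows without an annotated gene (phiX, ERCC and numeric identifiers) stayed out of library sizes and tests.

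The members and lists were chosen with earlier results of these data known. Named are all 34 genes, the 4 highest and the lowest detected gene of each other list, paralogs, and genes that overlap a member. Some genes taken by this rule are not reported here. Protein sequences were not analysed here.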

Additional observations from a re-analysis of the deposited data

How the results depend on the processing

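All 34 genes stayed detected at a TPM minimum of 0.5, with at least 10 expected counts, with kallisto-format values and without any 1 replicate, and 32 at a minimum of 5. The share of protein-coding TPM held by the 34 genes, 4.35% as reported, was 3.58% with kallisto-format values, 3.74% of expected counts, 0.911% of the TPM of all annotated genes and 2.51% without Psap. The median retained-intron share, 17.0% as reported, was 20.0% with kallisto-format values and 12.8% with expected counts, and over the 5980 genes 28.4% and 13.5%. It lay below that of all genes in both TPM units, but in counts the gap was smaller than the SD between libraries (0.96), and replicate 2 had 13.9% against 13.7%. Single levels moved by more than the SD between libraries in 14 genes with kallisto-format values. Kallisto-format means were 0.752 to 1.65 times those reported (Manba highest). Leading isoform shares were labelled as moved in 24 genes. These include Gm2a and Lyz2, whose only transcript held 100% in both sets of values, so their shares did not in fact move. The cause of the other moves was not tested. No count test called any of the 34 genes under the alternatives run, and leaving out replicate 1 or 3 from the test of replicate 2 was not run, because it leaves no residual degrees of freedom. No paired analysis was possible because the labels give 1 group. Depth limits the isoform shares of Acp5, and 3 libraries limit every SD.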
